A study of Mus musculus with 9 samples.

Results

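The NR4A nuclear receptors and other immediate early genes outside the EGR and AP-1 families were examined in differentiated MC3T3-E1 cells. The 10 members, *Nr4a1*, *Nr4a2*, *Nr4a3*, *Klf4*, *Klf6*, *Ier2*, *Ier3*, *Btg2*, *Trib1* and *Arc*, were found by gene symbol among the 55416 genes of the deposited tables. All 10 were among the 13679 genes with enough counts to be tested. The members were chosen by name as known immediate early genes, with their fold changes in the same 3 comparisons already in view. Their levels, fold changes and counts are therefore given as a description, beside the share of all tested genes that behaved the same way. Thresholds on adjusted or unadjusted p-values serve only to count members, and no p-value of a single member is printed.

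MC3T3-E1 is a murine pre-osteoblastic line from calvarial bone. The cells were wild type, and the study used a single subclone of this line. All 3 conditions shared osteogenic medium with 10% serum, 10 mM β-glycerophosphate (BGP), 50 µg/mL ascorbic acid and 0.1 µM dexamethasone, so the Control cells had also been exposed to BGP. The labels give this medium up to day 27, whereas the study's methods remove BGP earlier. At day 27 cells received 4 mM BGP, an organic phosphate, or 4 mM NaHPO4, a sodium phosphate buffer that supplies inorganic phosphate, or no added phosphate (Control). RNA was collected at day 28, after 16 h, from 3 libraries per condition. The labels do not say whether these came from separate cultures, so errors and p-values measure only the spread between these libraries, which may be technical.

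Total counts were 21390839 to 25646046 in Control, 22331071 to 23546609 in BGP and 25203779 to 28234404 in NaHPO4, and no library was identical to another within counting noise. All 13 osteoblast and osteocyte markers passed the filter on low counts. The 3 myoblast markers *Myod1*, *Myog* and *Myf5* had no counts in any library. Of the endothelial markers, *Kdr* was at 0, and the summed level of the 3 reached at most 0.187 CPM (counts scaled to the size of the library). Macrophage markers summed to 1.52 to 2.48 CPM. Among the 5 fat cell markers *Adipoq*, *Lpl*, *Plin1* and *Pparg* stayed below 1 CPM, while *Fabp4* passed the filter at means of 13.8, 13.4 and 12.0 CPM in Control, BGP and NaHPO4, and the 5 summed to 9.97 to 16.2 CPM. Because whole cultures were sequenced, fewer cells expressing a gene and less RNA per cell cannot be told apart.

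Immediate early genes are transcribed within minutes of a stimulus without new protein synthesis, because the factors that switch them on are already present and are activated by kinases such as ERK and PKA. Their transcripts are usually short-lived, so a level measured hours later is a level at that time and not the first peak. NR4A proteins are orphan nuclear receptors that act without a known physiological ligand, and in bone cells they are known as targets of parathyroid hormone and cAMP. The other members act as zinc finger transcription factors (*Klf4*, *Klf6*), as growth and survival regulators (*Ier2*, *Ier3*, *Btg2*), as a pseudokinase scaffold (*Trib1*) or as a capsid-like protein known from synapses (*Arc*).

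The members differed widely in level. Per kilobase of the main annotated transcript, the mean Control level was 54.1 CPM per kb for *Klf4*, 24.3 for *Ier3*, 21.6 for *Ier2* and 14.7 for *Klf6*. *Nr4a1* stood at 7.1 CPM per kb and *Btg2* at 5.91. The lowest were *Nr4a2* at 1.66, *Arc* at 0.903, *Trib1* at 0.753 and *Nr4a3* at 0.187 CPM per kb. Before division by length, mean Control CPM placed *Klf4* above 92.7% and *Nr4a3* above 12.2% of the tested genes. *Nr4a1* was thus the most abundant and *Nr4a3* the least abundant of the NR4A receptors in every condition.

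**Figure D1:**
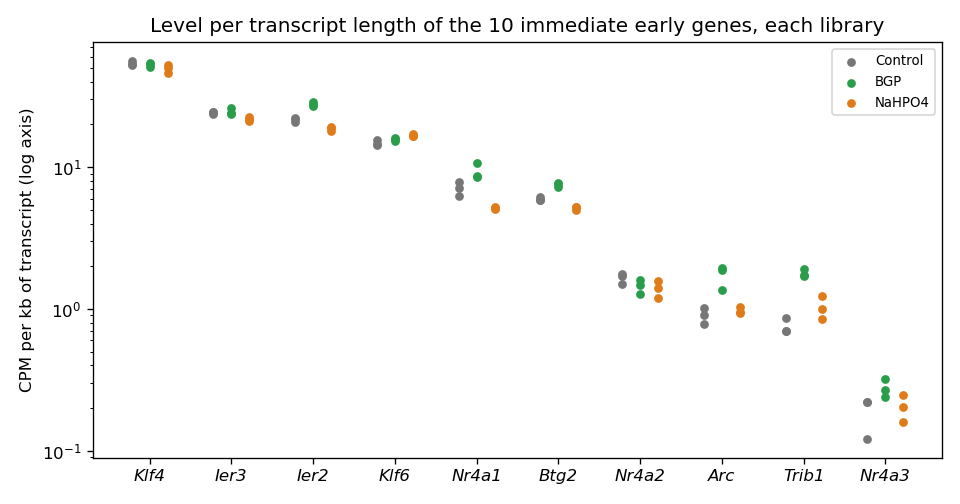
Level of each of the 10 genes in each library as CPM per kilobase of the main transcript, on a log axis, with genes in the order of their mean Control level and colours marking the condition. *Klf4* is the highest in all conditions and *Nr4a3* the lowest, and the points of one gene lie close together compared with the distance between most genes.

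*Nr4a1*, *Ier2* and *Btg2* were ordered BGP above Control above NaHPO4, with no overlap between the libraries at either step. This order was found in 3 of the 10 members and in 0.409% of all tested genes, a share given as background since the members were chosen with these contrasts known. Throughout, CPM values were scaled by the trimmed mean of M-values (TMM) and log2 fold changes (log2FC) are given ± standard error.

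*Nr4a1* (ENSMUSG00000023034) encodes NUR77, a receptor whose activity is set mainly by how much of it is made. Its levels in replicates 1, 2 and 3 were 20.01, 16.0 and 18.2 CPM in Control, 27.3, 21.8 and 22.2 CPM in BGP and 13.1, 12.8 and 13.2 CPM in NaHPO4. All BGP libraries were above all Control libraries, and all NaHPO4 libraries lay below both, with a much narrower spread. The means were 18.1 ± 2.02, 23.8 ± 3.07 and 13.0 ± 0.213 CPM (SD, n = 3). The log2FC was 0.40 ± 0.09 for BGP versus Control, -0.47 ± 0.09 for NaHPO4 versus Control and 0.87 ± 0.09 for BGP versus NaHPO4, the last a 1.82-fold difference. The latter was split between a higher level with the organic and a lower level with the inorganic phosphate.

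*Ier2* (ENSMUSG00000053560) encodes a small nuclear protein linked to cell motility and growth factor responses. Its level was 33.9, 33.1 and 31.8 CPM in Control, 43.7, 42.5 and 41.3 CPM in BGP and 27.3, 28.6 and 29.2 CPM in NaHPO4. The 3 conditions were well separated, and the libraries of one condition lay close together. The log2FC was 0.37 ± 0.06 for BGP versus Control, -0.21 ± 0.06 for NaHPO4 versus Control and 0.58 ± 0.06 for BGP versus NaHPO4, the last a 1.5-fold difference. *Ier2* is a gene of 1 exon.

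*Btg2* (ENSMUSG00000020423) encodes an antiproliferative protein that recruits the CCR4-NOT deadenylase to mRNA and is a target of p53. It was at 16.0, 16.8 and 16.0 CPM in Control, 21.2, 19.8 and 20.9 CPM in BGP and 14.4, 13.7 and 14.3 CPM in NaHPO4. The BGP libraries lay highest and the NaHPO4 libraries lowest, again without overlap. The log2FC was 0.35 ± 0.08 for BGP versus Control, -0.20 ± 0.08 for NaHPO4 versus Control and 0.55 ± 0.08 for BGP versus NaHPO4, a 1.46-fold difference.

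*Trib1* and *Arc* were higher with BGP than in both other conditions, while their NaHPO4 libraries overlapped those of Control. *Trib1* (ENSMUSG00000032501) encodes a pseudokinase that brings the ubiquitin ligase COP1 to C/EBP factors and binds MEK1. Its level was 3.79, 3.04 and 3.07 CPM in Control, 8.39, 7.50 and 7.65 CPM in BGP and 4.37, 3.72 and 5.39 CPM in NaHPO4. The lowest BGP library was above the highest NaHPO4 library, and NaHPO4 replicate 2 was below Control replicate 1. The log2FC of 1.25 ± 0.15 for BGP versus Control was the largest of any member in the 3 comparisons, a 2.38-fold difference on 70 to 186 counts per library. It was 0.44 ± 0.16 for NaHPO4 versus Control and 0.81 ± 0.14 for BGP versus NaHPO4.

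*Arc* (ENSMUSG00000022602), best known from neurons, where it controls receptor trafficking at synapses, was also counted in these bone cells. It was at 3.08, 2.78 and 2.40 CPM in Control, 5.73, 5.97 and 4.13 CPM in BGP and 3.13, 2.84 and 2.89 CPM in NaHPO4, on 61 to 133 counts per library. BGP replicate 3 was lower than the other two BGP libraries but still above every Control and NaHPO4 library. The log2FC was 0.94 ± 0.18 for BGP versus Control and 0.83 ± 0.17 for BGP versus NaHPO4, or 1.92-fold and 1.78-fold. For NaHPO4 versus Control it was 0.11 ± 0.19.

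**Figure D2:**
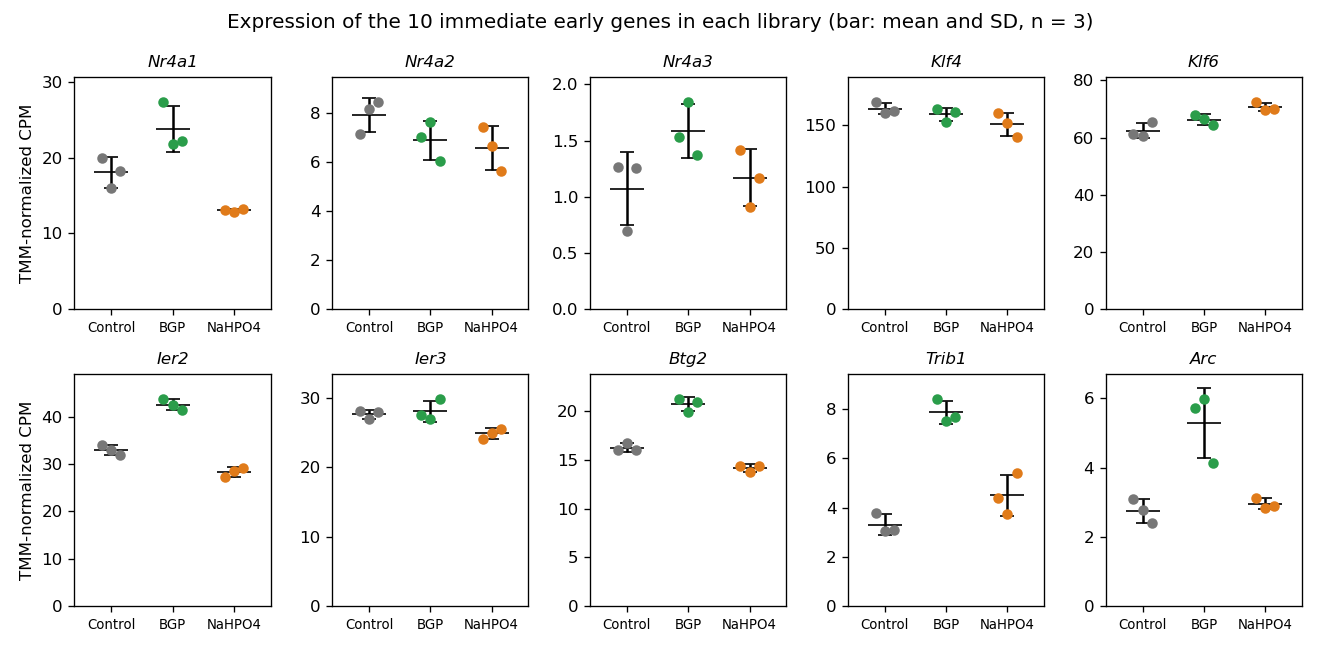
TMM-normalized CPM of each of the 10 genes in the 3 Control, 3 BGP and 3 NaHPO4 libraries (points; replicates 1 to 3 from left to right), with the mean and SD. All BGP points of *Nr4a1*, *Ier2*, *Btg2*, *Trib1* and *Arc* lie above the other 6, and the NaHPO4 points of *Nr4a1*, *Ier2* and *Btg2* lie below Control.

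Neither of the other NR4A receptors passed a false discovery rate (FDR) of 0.05 in any comparison. *Nr4a2* (ENSMUSG00000026826), which encodes NURR1, a factor required for dopamine neurons and induced by parathyroid hormone in osteoblasts, was at 7.15, 8.18 and 8.46 CPM in Control, 7.04, 7.64 and 6.06 CPM in BGP and 7.46, 6.67 and 5.66 CPM in NaHPO4. The libraries of every pair of conditions overlapped. Its log2FC was -0.20 ± 0.13 for BGP versus Control, -0.27 ± 0.13 for NaHPO4 versus Control and 0.06 ± 0.13 for BGP versus NaHPO4. *Nr4a3* (ENSMUSG00000028341), which encodes NOR1, had 16 to 41 counts per library and was the member measured least precisely. It was at 1.26, 0.696 and 1.26 CPM in Control, 1.53, 1.84 and 1.38 CPM in BGP and 1.42, 0.913 and 1.17 CPM in NaHPO4. The BGP libraries lay above the Control libraries and overlapped those of NaHPO4. Its log2FC was 0.56 ± 0.30 for BGP versus Control, 0.12 ± 0.31 for NaHPO4 versus Control and 0.44 ± 0.29 for BGP versus NaHPO4. With 1 library left out these ranged from 0.33 (without Control replicate 2) to 0.70 (without Control replicate 3), from -0.11 (without Control replicate 2) to 0.27 (without NaHPO4 replicate 2) and from 0.28 (without NaHPO4 replicate 2) to 0.61 (without NaHPO4 replicate 1). A difference of the size seen for *Nr4a1* was not resolved at this depth.

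The Krüppel-like factors moved little. *Klf4* (ENSMUSG00000003032), a pluripotency factor that also restrains osteoblast maturation, was at 169, 160.2 and 162 CPM in Control, 163, 153 and 161 CPM in BGP and 160.0, 152 and 141 CPM in NaHPO4. The NaHPO4 libraries were just below all Control libraries, and the log2FC was -0.12 ± 0.04 for this comparison and -0.04 ± 0.04 for BGP versus Control. *Klf6* (ENSMUSG00000000078), a tumour suppressor, was at 61.2, 60.4 and 65.4 CPM in Control, 68.0, 66.4 and 64.4 CPM in BGP and 72.4, 69.7 and 69.9 CPM in NaHPO4. *Klf6* was thus the member with its highest level in NaHPO4, above both other conditions in every library. Its log2FC was 0.18 ± 0.04 for NaHPO4 versus Control and -0.09 ± 0.04 for BGP versus NaHPO4, opposite in sign to that of *Nr4a1*, *Ier2* and *Btg2* in both.

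*Ier3* (ENSMUSG00000003541), which encodes a survival protein that prolongs ERK signalling and is a target of NF-κB, was at 28.0, 26.9 and 28.0 CPM in Control, 27.5, 27.0 and 29.8 CPM in BGP and 24.1, 24.96 and 25.6 CPM in NaHPO4. Control and BGP libraries overlapped, while the NaHPO4 libraries were below all others. The log2FC was 0.02 ± 0.06, -0.15 ± 0.06 and 0.18 ± 0.06 for BGP versus Control, NaHPO4 versus Control and BGP versus NaHPO4.

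A gene was past the threshold when its FDR, adjusted by Benjamini-Hochberg over the 13679 genes of the edgeR quasi-likelihood fit, was below 0.05 and its absolute log2FC above 0.5. For BGP versus Control this held for 2 of 10 members, *Trib1* and *Arc*, both higher, against 0.556% of all tested genes in either direction and 0.482% in this one. With the FDR alone it held for 5 members, with *Nr4a1*, *Ier2* and *Btg2* added, against 2.53% of all genes. *Nr4a1* no longer passed the FDR without BGP replicate 1 (log2FC 0.29) or without Control replicate 2 (0.32). For NaHPO4 versus Control 0 members were past the threshold in this fit, against 0.716% of all genes. By the FDR alone *Klf6* was higher and *Nr4a1* and *Ier2* were lower, against 7.38% of all genes. *Ier2* no longer passed the FDR here without Control replicate 1 (-0.19) or without NaHPO4 replicate 1 (-0.185). At an unadjusted p below 0.05 the count was 8 members with edgeR and with limma, against 19.9% of all genes with either, and 7 with DESeq2, against 15.1%, and neither of those tools placed a member past the threshold. For BGP versus NaHPO4 5 members were past it, *Nr4a1*, *Ier2*, *Btg2*, *Trib1* and *Arc*, all higher with BGP, against 0.585% of all genes in either direction and 0.38% in this one. The FDR alone gave the same 5, against 5.38% of all genes. The libraries did not overlap for 6 members in BGP versus Control, 6 in NaHPO4 versus Control and 7 in BGP versus NaHPO4, against 18.5%, 23.2% and 21.2% of all genes. The median log2FC of the members was 0.36, -0.14 and 0.49 in the 3 comparisons, beside -0.004, 0 and -0.002 over all tested genes. The 2 comparisons with Control use the same Control libraries, and the counts are not independent of each other.

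**Figure D3:**
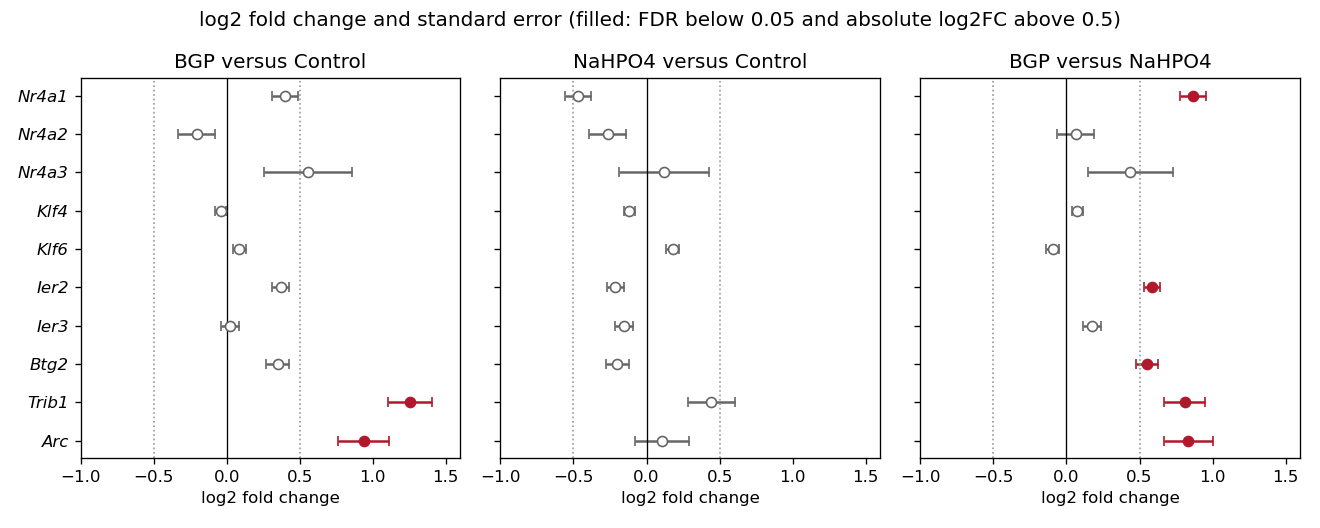
log2FC and standard error of the 10 genes in each comparison, with filled points for genes past the threshold (2 for BGP versus Control, 0 for NaHPO4 versus Control, 5 for BGP versus NaHPO4). *Trib1* is farthest to the right for BGP versus Control, and *Nr4a1*, *Arc* and *Trib1* for BGP versus NaHPO4.

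Leaving out 1 library changed the count of members for NaHPO4 versus Control only. Without Control replicate 2, *Nr4a1* was past the threshold at a log2FC of -0.55, and without NaHPO4 replicate 2, *Trib1* was past it at 0.57. Each of these raised the count from 0 to 1.

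Among the markers of other cell types, only *Col2a1* was past the threshold in a comparison of the edgeR fit. The summed level of the 4 chondrocyte markers was 248 to 306 CPM in Control, 340 to 446 CPM in BGP and 185 to 264 CPM in NaHPO4, in the order seen for *Nr4a1*, although NaHPO4 and Control overlapped. Most of it was *Col2a1*, the main collagen of cartilage, with a log2FC of 0.50 ± 0.09 for BGP versus Control. For NaHPO4 versus Control it was -0.45 ± 0.10, with overlapping libraries. For BGP versus NaHPO4 it was 0.95 ± 0.09, past the threshold and above the value of each member. *Sox9* lay between 34.4 and 43.3 CPM in all libraries. *Acan* and *Col10a1* stayed below 1 CPM, and the log2FC of *Col10a1* for NaHPO4 versus Control was 0.81 ± 0.60, opposite in sign to that of *Col2a1*. The macrophage sum was 1.74 to 2.01 CPM in Control, 2.02 to 2.48 CPM in BGP and 1.52 to 1.72 CPM in NaHPO4, also in the order of *Nr4a1*, although 2 of its 4 markers passed the filter and none passed the FDR. The 13 osteoblast and osteocyte markers summed to 110215 to 117283 CPM in Control, 107656 to 113803 CPM in BGP and 97508 to 104374 CPM in NaHPO4, so that the libraries with the lowest *Nr4a1*, *Ier2*, *Btg2* and *Ier3* also had the lowest sum. This sum is carried by *Col1a1* (mean 43300, 41500 and 37300 CPM in Control, BGP and NaHPO4), *Col1a2* (56400, 54900 and 50200 CPM) and *Ibsp* (12400, 12400 and 12200 CPM), whereas *Dmp1* was higher with both phosphates than in Control. *Sost*, at means of 1.39, 1.21 and 0.427 CPM in Control, BGP and NaHPO4, was past the threshold in 2 comparisons. Its log2FC was -1.685 ± 0.377 for NaHPO4 versus Control and 1.475 ± 0.387 for BGP versus NaHPO4. The lowest BGP library of *Sost* was at 0.5158 CPM, next to the highest NaHPO4 library at 0.5096 CPM. In each of these comparisons 2 of the 13 markers, *Dmp1* and *Sost*, were past the threshold with edgeR, and only 1 marker with DESeq2. The part of all these markers in the differences of the members was not tested.

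The sequences upstream of the members were searched for the cAMP response element (CRE), TGACGTCA, which binds CREB, and for the TGACG core, a shorter CREB site, on both strands and with the cores inside a CRE counted. The window was the 250 bases before the start of the main GENCODE transcript, in GRCm39. A CRE was found in 3 members, *Ier2*, *Btg2* and *Trib1*, and in 2.12% of the 11850 tested protein-coding genes. At least 2 cores were found in 5 members (*Nr4a1*, *Nr4a3*, *Ier2*, *Btg2* and *Trib1*) and in 5.6% of the genes. Each CRE holds 2 overlapping cores, so *Ier2*, *Btg2* and *Trib1* reached this number by their CRE alone. Only *Nr4a1* and *Nr4a3* reached it without a CRE. *Arc*, *Nr4a2*, *Klf6* and *Ier3* had none in this window and *Klf4* had 1. Annotated exons cover all 250 bases of the *Nr4a2* window, 132 of the *Arc* window and 62 of the *Klf4* window. The lack of cores for *Nr4a2* and *Arc* thus describes bases that are wholly or partly exon. The windows of the genes with a CRE, or with the most cores, are printed 5′ to 3′ on the strand of the gene, with the CRE and cores in capitals.

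*Ier2*, chr8:85389484-85389733, minus strand, CRE beginning 43 bases before the start: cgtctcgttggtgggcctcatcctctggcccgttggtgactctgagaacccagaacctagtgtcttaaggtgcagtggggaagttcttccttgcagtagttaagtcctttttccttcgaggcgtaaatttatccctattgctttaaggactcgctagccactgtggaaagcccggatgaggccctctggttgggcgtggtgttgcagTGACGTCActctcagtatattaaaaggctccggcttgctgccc
*Btg2*, chr1:134006859-134007108, minus strand, CRE beginning 201 bases before the start: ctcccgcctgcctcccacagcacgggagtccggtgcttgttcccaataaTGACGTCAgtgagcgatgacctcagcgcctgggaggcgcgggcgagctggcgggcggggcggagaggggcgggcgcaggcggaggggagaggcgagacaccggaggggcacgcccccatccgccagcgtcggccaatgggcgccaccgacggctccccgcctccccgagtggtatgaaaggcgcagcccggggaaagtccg
*Nr4a3*, chr4:48044903-48045152, plus strand, cores beginning 79, 61 and 53 bases before the start: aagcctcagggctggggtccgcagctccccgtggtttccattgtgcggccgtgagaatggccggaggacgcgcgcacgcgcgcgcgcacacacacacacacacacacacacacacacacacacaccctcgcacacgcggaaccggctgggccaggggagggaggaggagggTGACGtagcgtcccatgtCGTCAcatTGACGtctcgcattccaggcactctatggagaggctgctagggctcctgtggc

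For the other two members with these sites only 30 bases are shown, because part of their windows lies in annotated exons, 143 bases for *Nr4a1* and 173 for *Trib1*.

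*Trib1*, chr15:59520072-59520101, plus strand, CRE beginning 64 bases before the start: ccccgggaaccTGACGTCAcgggagctttg
*Nr4a1*, chr15:101164492-101164521, plus strand, cores beginning 166 and 146 bases before the start: tgCGTCAatggaaccccgcgtgCGTCAcgc

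A CRE or at least 2 cores were thus found upstream of *Nr4a1*, *Ier2*, *Btg2* and *Trib1*, which were past the threshold for BGP versus NaHPO4, but also upstream of *Nr4a3*, which was not, and neither was found upstream of *Arc*, which was. These matches describe the letters in the window and not binding. In the RefSeq windows of GRCm38.p6, which use other start sites and held 7 of the 10 members, the core was counted 4 times in each of *Nr4a1*, *Nr4a2* and *Nr4a3*, a number reached in 0.152% of 27025 genes. For *Nr4a2*, whose libraries overlapped between all conditions, the GENCODE window held 0 and the RefSeq window 4, and both start site and genome build differ between these sources.

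No member had an AP-1 site (TGA and TCA around any 1 base), a TATA box (TATAAA, read on the strand of the gene alone), a CArG box, which binds SRF, or an NBRE (AAAGGTCA), which binds NR4A receptors, in the GENCODE window. These motifs were present in 4.49%, 4.09%, 1.13% and 0.911% of the windows of all 11850 genes. The EGR site (GCG and GGGCG around a G or T) was found in *Klf4* alone among the members and in 4.19% of all windows. All but the TATA box were read on both strands.

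In GRCm39, *Nr4a1* lies at chr15:101151980-101172681, *Ier2* at chr8:85387960-85389483, *Btg2* at chr1:134002908-134015033, *Trib1* at chr15:59520147-59528948 and *Arc* at chr15:74540932-74544419. The 3 on chromosome 15 are not neighbours. Of the others, *Nr4a2* lies at chr2:56996842-57014331, *Nr4a3* at chr4:48045153-48086447, *Klf4* at chr4:55527139-55532528, *Klf6* at chr13:5911481-5920393 and *Ier3* at chr17:36132568-36133815. The windows of *Btg2*, *Nr4a1* and *Nr4a2* lie inside these spans, because other annotated transcripts begin farther upstream. By their medians the members were compact, with 3.5 exons and a span of 8857.5 bases, beside 9 exons and 26575.5 bases over the 11850 genes. Their median spliced length of 3045 bases was near that of all, 3511.5 bases. The NR4A genes were longer, with 7, 8 and 8 exons and spans of 20702, 17490 and 41295 bases for *Nr4a1*, *Nr4a2* and *Nr4a3*. The span of *Nr4a3* was above the median of all. The pentamer ATTTA, the core of AU-rich elements that mark short-lived mRNA, was counted in the 3′ untranslated region of the main transcript. Its median density was 1.93 per kb in the members and 1.4 per kb in 11415 genes with a region of at least 100 bases. *Ier3* had 5 copies, 8.16 per kb, a density above that of 99% of those genes, and *Nr4a1* had 3 copies, 5.48 per kb, above 96.2%. *Ier2*, *Arc* and *Trib1* had 0 copies. The longer TATTTAT was found in 5 members, with 4 copies in *Ier3* and 0 in *Nr4a1*, and in 33.9% of those genes. The still longer TTATTTATT was found in 0 members and in 9.39% of those genes. The densest stretch of *Ier3* is shown because it holds 2 copies in 25 bases, with ATTTA in capitals.

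*Ier3*, positions 171 onward of its 3′ untranslated region: tgtctaattaatATTTAtgtATTTA

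Of the 5 members past the threshold for BGP versus NaHPO4, *Nr4a1* and *Btg2* held ATTTA and *Ier2*, *Trib1* and *Arc* did not.

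Other immediate early genes were used for comparison, in a list of 66 genes written with some results known, of which 60 were tested. For BGP versus NaHPO4 6 of 60 were past the threshold, all higher with BGP, against 0.585% of all tested genes in either direction. These were the zinc finger factors *Egr1* (log2FC 1.17 ± 0.04), *Egr2* (1.54 ± 0.10) and *Egr3* (0.98 ± 0.06), *Fos* (0.59 ± 0.14), the ERK phosphatase *Dusp5* (0.72 ± 0.15) and the Notch target *Hes1* (0.66 ± 0.12), with an adjusted p of 0.00764 for *Fos* in the edgeR quasi-likelihood fit. *Fos* was lost without BGP replicate 1 or NaHPO4 replicate 2. The log2FC of *Egr1*, *Egr2* and *Egr3* were above that of each of the 10 members, though these differences between genes were not tested. The median log2FC of the list was 0.13, beside 0.49 for the members.

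For BGP versus Control 7 of 60 rose, *Egr1*, *Egr2*, *Egr3*, *Ccn2*, *Dusp6*, *Hes1* and *Spry4*, with log2FC between 0.70 and 1.83. The share of all tested genes past the threshold here was 0.556% in either direction. *Spry4* was lost with DESeq2, at an FDR below 0.01 and without Control replicate 1, 2 or 3 or BGP replicate 1 or 2. *Ccn2* encodes a matricellular growth factor, and *Dusp6* and *Spry4* encode feedback inhibitors of the ERK pathway. For NaHPO4 versus Control 5 rose, *Egr3* (0.85 ± 0.07), *Fosl1* (1.21 ± 0.25), *Ier5l* (0.51 ± 0.12), *Ccn2* (0.64 ± 0.05) and *Dusp6* (0.86 ± 0.07), against 0.716% of all genes in either direction. By the FDR alone 14 of the 60 were lower and 7 higher, against 7.38% of all genes in either direction. *Fosl1* was lost with DESeq2, and *Ier5l* without Control replicate 3 or NaHPO4 replicate 3. The order BGP above Control above NaHPO4 without overlap was found in 2 of the 60, *Egr1* and *Errfi1*, an inhibitor of EGF receptors. Every BGP library was above all others in 14 of the 60, in 5 of the 10 members and in 3.1% of all tested genes.

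**Figure D4:**
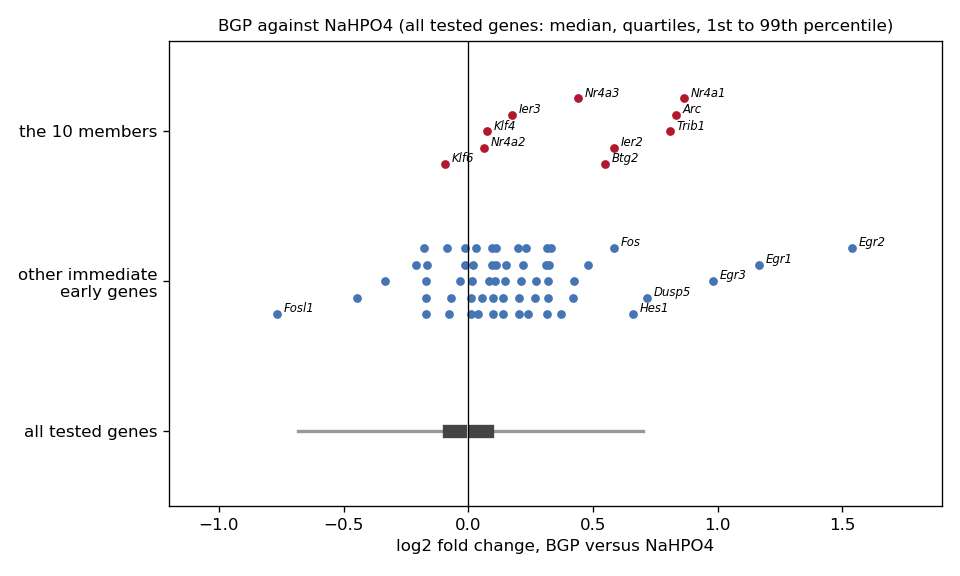
log2FC for BGP versus NaHPO4 of the 10 members (red), the 60 other immediate early genes (blue) and all tested genes (median, quartiles and the range from the 1st to the 99th percentile). Members reach 0.87 for *Nr4a1*, *Egr2* lies farthest to the right at 1.54, and *Fosl1* lies farthest to the left, with no position on the vertical axis carrying meaning within a row.

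*Fgf23*, the phosphate-regulating hormone the study is about, was at 1.20 ± 0.367 CPM in Control, 8.39 ± 1.6 CPM in BGP and 1.54 ± 0.271 CPM in NaHPO4 (SD, n = 3). Like *Arc*, it was higher in every BGP library than in the other 6. *Dmp1*, a matrix protein of osteocytes, was at 76.0 ± 10.4, 552 ± 41.8 and 349 ± 30.3 CPM and rose with both phosphates, with BGP above NaHPO4. By their means *Trib1*, *Arc* and *Nr4a3* had the same order, but their NaHPO4 and Control libraries overlapped.

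Within a condition the mean correlation between members was near 0. After subtraction of each condition's mean log2 CPM, it was 0.0667 over the 45 pairs of members, with 26 pairs above 0, beside -1.36e-05 over all pairs of tested genes. The closest pair was *Nr4a3* and *Klf6* at 0.627, followed by *Nr4a2* and *Klf6* at 0.577 and *Nr4a1* and *Trib1* at 0.566. Pairs that varied in opposite directions reached larger values, -0.824 for *Nr4a2* and *Ier3*, -0.775 for *Arc* and *Ier3* and -0.588 for *Nr4a2* and *Trib1*. Each value rests on 9 libraries that share their depth and scaling. Because 3 condition means were removed, the 9 deviations are not free of each other. The pairs named are the most extreme of the 45. Without BGP replicate 1 the mean was 0.0113, without Control replicate 3 it was 0.115 and without NaHPO4 replicate 3 it was 0.121.

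Some counts may hold reads of other genes. Exons of annotated genes on the opposite strand overlap 898 bases of *Btg2*, 656 of *Nr4a1*, 396 of *Ier3* and 157 of *Trib1*, and those genes are not in the tables analysed here. The libraries kept the strand, but whether counting used it is not given in the sources used here. Of the 50-base windows of the main transcript, read on both strands, 32% occurred in transcripts of 1 other gene for *Ier3*. For any other member at most 2.71% occurred in another gene's transcript. The strand of a match was not kept, so the *Ier3* windows may be the same bases as its overlap on the opposite strand.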

How the data were processed

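RNA sequencing libraries of MC3T3-E1 cells (3 Control, 3 BGP, 3 NaHPO4) were analysed, with condition and replicate number taken from the sample labels. The authors deposited whole-number counts per Ensembl gene without normalization, made from stranded poly(A) reads mapped to GRCm39 with Ensembl annotation in the AIR software. FastQC and edgeR are named in the submitters' processing notes. The aligner and counting program are not given in the sources used here. The authors also deposited a second table, whose signal is the count times 1 TMM-based factor per library (1.01 to 1.32), used for 1 alternative only. 0 columns belonged to other samples.

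Counts were filtered with filterByExpr of edgeR 4.0.16 (count minimum 10), scaled by TMM and fitted with glmQLFit on all 9 libraries, with 1 coefficient per condition and no covariate. Each comparison went through glmQLFTest, with p-values adjusted by Benjamini-Hochberg. The standard error was the absolute log2FC divided by the square root of the F statistic. Total counts were 21390839 to 28234404 per library, and edgeR's common coefficient of variation came to 3.64%. For correlations, a prior count of 2 went into the log2 CPM.

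The members and all gene lists were chosen with earlier results of these data known. Named were the 10 members, list genes past the threshold (at most 12 per list and comparison), marker genes, *Fgf23*, *Dmp1*, and for each member the 3 most similar genes. *Errfi1* and list genes named for their FDR alone were chosen after their values were seen.

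Gene structures came from GENCODE vM39 on GRCm39, in which 13631 of 13679 tested genes were found, and further promoter windows from RefSeq on GRCm38.p6. Replicate numbers were checked for pairing: same-numbered libraries of different conditions had a mean correlation of deviations of 0.0127 (9 pairs), so they were not treated as pairs. Alternatives were only the 2 conditions compared, edgeR's likelihood ratio test, DESeq2 1.42.0, limma 3.58.1 on log2(value + 1) of the TMM table, DESeq2 size factors, total counts, no filter or at least 10 counts in every library, other thresholds, a replicate block, and each library left out.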

Additional observations from a re-analysis of the deposited data

How the results depend on the processing

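The 30 log2FC values of the members were recomputed under 18 alternatives each. Of these 540 values, 538 kept their direction or stayed uncalled, 2 passed the threshold newly (*Nr4a1* without Control replicate 2 and *Trib1* without NaHPO4 replicate 2, both for NaHPO4 versus Control), and no value past the threshold was lost or reversed (by the FDR alone, *Nr4a1* for BGP versus Control and *Ier2* for NaHPO4 versus Control were each lost when either of 2 libraries was left out), although 5 uncalled values near 0 changed sign, of *Nr4a2*, *Nr4a3* and *Ier3*. With no minimum log2FC, the count of members was 5 for BGP versus Control (2 as reported) and 3 for NaHPO4 versus Control (0 as reported), and that of other immediate early genes was 16, 21 and 23 for BGP versus Control, NaHPO4 versus Control and BGP versus NaHPO4 (7, 5 and 6 as reported). With a minimum log2FC of 1, the count of members was 1 for BGP versus Control and 0 for BGP versus NaHPO4 (5 as reported), and that of other immediate early genes 4, 1 and 2. Leaving out 1 library gave 2 to 2, 0 to 1 and 5 to 5 members, 6 to 7, 4 to 6 and 5 to 7 other immediate early genes, and a mean correlation of deviations between 0.0113 and 0.121. The changes with the minimum log2FC follow from its construction, and the cause of the others was not tested.

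With the replicate number as a block, 2, 0 and 5 members and 7, 5 and 7 other immediate early genes were past the threshold, and the libraries share only a number, with same-numbered correlations from -0.0092 to 0.0426. Depth limits *Nr4a3*, *Arc* and *Trib1* most, at 16 to 186 counts per library.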

Other observations

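Few relatives and partners of the members were past the threshold, which 0.556%, 0.716% and 0.585% of all tested genes passed in the 3 comparisons. Among 18 tested paralogs, *Ier5l*, also counted among the other immediate early genes, rose with NaHPO4 (log2FC 0.51 ± 0.12). No paralog was past the threshold for BGP versus Control or for BGP versus NaHPO4. At an unadjusted p below 0.05 edgeR gave 7, 6 and 4 paralogs in the 3 comparisons. These are 38.9%, 33.3% and 22.2%, against 13.4%, 19.9% and 16.9% of all tested genes. *Klf2*, a flow-responsive factor close to *Klf4*, was lower with NaHPO4 than in Control by the FDR alone (-0.42 ± 0.06), and *Trib2* was higher with BGP (0.27 ± 0.05) and NaHPO4 (0.30 ± 0.05). Of 8 tested partners of the members, such as RXR receptors and C/EBP factors, 0 were past the threshold in the edgeR fit. At an unadjusted p below 0.05 the edgeR count of partners was 3, 4 and 0 in the 3 comparisons (37.5%, 50% and 0%). *Cebpb*, a factor that TRIB1 can mark for degradation, was lower by the FDR alone with BGP (-0.26 ± 0.05) and NaHPO4 (-0.27 ± 0.05).

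Of 19 kinases and factors that act upstream of immediate early genes, 0 were past the threshold in the edgeR fit, with 4, 6 and 5 at an unadjusted p below 0.05, and the likelihood ratio test, DESeq2 and limma gave 0 as well. By the FDR alone *Srf*, *Mef2a* and *Mef2d* were higher with BGP than with NaHPO4 (0.27 ± 0.05, 0.27 ± 0.03 and 0.175 ± 0.038). For NaHPO4 versus Control *Srf* and *Mef2a* were lower (-0.27 ± 0.05 and -0.14 ± 0.03) and *Mef2c* was higher (0.13 ± 0.04). *Mef2a* was also higher with BGP than in Control (0.13 ± 0.03). Of 9 tested cAMP and CREB targets outside the members, 0 were past the threshold in any comparison by edgeR, DESeq2 or limma, with 0, 1 and 1 at an unadjusted p below 0.05 in edgeR. Of 6 factors of AU-rich mRNA decay, 0 were past it, with 2, 2 and 4 at an unadjusted p below 0.05, while *Zfp36*, which binds AU-rich elements, was lower with NaHPO4 than in Control by the FDR alone (-0.28 ± 0.06) and *Hnrnpd*, another AU-rich binding factor, was higher (0.19 ± 0.04). The 6 heat shock genes listed summed to 548 to 560 CPM in Control, 558 to 576 CPM in BGP and 522 to 531 CPM in NaHPO4. Most of this was *Hspa8* (mean 463, 473 and 435 CPM), so the sum does not measure a response to handling. *Hspa1a* and *Hspb1* stayed below 1 CPM and were not tested. Of the 4 tested, 0 were past the threshold in the edgeR fit, with 0, 2 and 2 at an unadjusted p below 0.05. Of all tested genes, 13.4%, 19.9% and 16.9% had an unadjusted p below 0.05 with edgeR in the 3 comparisons.

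The genes whose log2 CPM was most like that of a member over the 9 libraries were *Hhipl1* for *Nr4a1* (r = 0.974), *Egr1* for *Btg2* (0.975), *Ramp1* for *Ier2* (0.969), *Lsp1* for *Trib1* (0.978) and *Skil* for *Arc* (0.937). *Egr1* was among the 3 most similar genes of both *Btg2* and *Ier2*, and *Egr3* among those of *Trib1* (0.962). *Hspa8*, a heat shock gene, was among those of *Nr4a1* (0.961). For the members with little difference between conditions the closest were *Glb1l* for *Nr4a2* (0.967), *Smurf2* for *Nr4a3* (0.944), *Cox4i2* for *Klf4* (0.958), *Scd1* for *Klf6* (0.971) and *Zyx* for *Ier3* (0.974). These correlations describe libraries that share conditions and scaling, and the genes were picked as the highest of all tested.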
